A study of Mus musculus with 4 samples.

Results

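The genes described here are the 78 mouse genes named as mitochondrial ribosomal proteins, out of 32285 genes counted in islet cells. They were taken by symbol alone, as Mrpl or Mrps followed by a number and an optional letter, with pseudogene symbols left out. The rule itself uses no measured value, but the gene family was picked for description with earlier results of these data known. 49 carry large subunit symbols (Mrpl) and 29 carry small subunit symbols (Mrps). Islets of wild-type male C57BL6J mice, 8 weeks old, spent 24 h in culture, were dispersed into single cells with Accutase, and were profiled with droplet-based 3′ RNA-seq. There were 4 conditions: vehicle (DMSO) or 1 mM imeglimin, a glucose-lowering drug used in diabetes, each at 3.9 or 11.1 mM glucose. Each condition is 1 library, and the labels do not say how many mice gave the islets. No difference between conditions therefore has a replicate check, none was tested, and the 95% intervals given cover counting error only.

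The mitochondrial ribosome translates the few messenger RNAs that mitochondrial DNA encodes, all of them for subunits of the respiratory chain and ATP synthase. Its ribosomal RNA comes from the mitochondrial genome, but its proteins are encoded in the nucleus, made in the cytosol and imported. In beta cells the oxidation of glucose in mitochondria raises ATP, which closes potassium channels and leads to insulin release, so the respiratory chain is part of glucose sensing.

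By their place in the assembled particle, 51 members belong to the large subunit and 26 to the small subunit. Mrps30 (mL65) and Mrps18a (mL66) sit in the large subunit despite their symbols, and Mrps36 is known as a part of the 2-oxoglutarate dehydrogenase complex. By the names of the proteins in the particle, 46 members are counted as having a bacterial counterpart and 32 as specific to mitochondria. The 32 include Mrps18a and Mrps18b (mS40), although both are homologues of a bacterial protein. The genes lie on 17 chromosomes. In the GENCODE vM21 annotation, 3 of them share exon sequence on the same strand with another gene (Mrps24 with Urgcp, Mrps6 with Slc5a3 and Mrps34 with Nme3), so the counts of these 3 are uncertain.

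Promoter windows of RefSeq genes on GRCm38.p6, 300 bases that reach from before to just after the gene start, were at hand for 69 of the 78 members. The 100 bases before the start are shown for 6 members named in the comparisons that follow, to set regulatory letters beside their levels. Capitals mark matches on either strand to the NRF1 motif, in which any base may stand at the fifth place, or to the ETS motif (CCGGAAG).
Mrpl9, chr3:94443236-94443335, plus strand: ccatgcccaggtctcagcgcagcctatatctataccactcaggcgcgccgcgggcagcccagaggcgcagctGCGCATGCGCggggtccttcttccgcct
Mrps21, chr3:95871515-95871614, minus strand: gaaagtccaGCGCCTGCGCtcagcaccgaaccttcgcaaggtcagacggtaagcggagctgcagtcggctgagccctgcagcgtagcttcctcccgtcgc
Mrpl22, chr11:58171564-58171663, plus strand: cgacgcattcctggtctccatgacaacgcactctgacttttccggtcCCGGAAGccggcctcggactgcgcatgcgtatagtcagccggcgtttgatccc
Mrps22, chr9:98601680-98601779, minus strand: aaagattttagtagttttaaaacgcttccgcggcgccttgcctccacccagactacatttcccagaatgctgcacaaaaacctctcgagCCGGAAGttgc
Mrpl52, chr14:54426809-54426908, plus strand: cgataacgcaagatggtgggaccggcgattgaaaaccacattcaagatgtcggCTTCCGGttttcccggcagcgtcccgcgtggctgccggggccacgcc
Mrps30, chr13:118387253-118387352, minus strand: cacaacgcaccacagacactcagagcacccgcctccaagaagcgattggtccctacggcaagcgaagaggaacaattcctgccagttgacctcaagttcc
Mrpl9 and Mrps21 hold the NRF1 letters in this stretch, Mrpl22, Mrps22 and Mrpl52 the ETS letters, and Mrps30 neither. These 6 do not stand for all leading members. Mrpl1, Mrps9 and Mrpl33, which also lead comparisons below, hold neither wholly within the 100 bases before their starts. Across the start, Mrps9 holds the NRF1 letters from position -5 and Mrpl33 the ETS letters from position -3. Both are counted as matches in the window totals that follow.

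NRF1 and the ETS factor GABP are known as regulators of nuclear genes for mitochondrial proteins, and YY1 (searched as AANATGGCG, where N is any base) is a further factor of such promoters. The ETS letters occurred in 25 of the 69 windows (36.2%), against 21.5% of the windows of 5153 genes compared in beta-like cells and 9.12% of all 27025 windows. The NRF1 letters occurred in 13 (18.8%, against 13.95% and 4.78%) and the YY1 letters in 11 (15.9%, against 6.68% and 2.51%). At least 1 of these 3 was found in 41 member windows (59.4%), against 36.8% of the windows of genes compared in beta-like cells. The E-box CACGTG occurred in 5 windows (7.25%, against 11.55% and 7.24%), and the amino acid response letters TGATGNAA in 0 of 69 (against 2.15% and 4.06%). Both strands were searched, and matches of different motifs that overlap were each counted. A match describes letters in a window and is neither a site nor a cause.

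The 4 libraries held 7166 to 8755 cells after filtering and between 91245564 and 106092232 UMIs (unique molecular identifiers, each a counted RNA molecule). Pairs of libraries shared 19 to 34 cell barcodes. Cells were clustered without the members among the variable genes, and classes were named from marker genes. Beta-like cells numbered 4650 (vehicle) and 4459 (imeglimin) at 3.9 mM, and 4911 (vehicle) and 5486 (imeglimin) at 11.1 mM. They fell mostly into different clusters in different libraries. Cluster c1 held 84.0% of those with vehicle at 3.9 mM, c2 and c5 held 59.3% and 31.0% of those with imeglimin at 3.9 mM, c4 held 61.4% of those with vehicle at 11.1 mM, and c9 and c20 held 36.1% and 36.2% of those with imeglimin at 11.1 mM. A cluster that is mostly 1 library cannot be told apart from that library. The library with imeglimin at 3.9 mM stood apart from the other 3. Its kept cells had a median of 8832 UMIs, against 11400 to 12035 in the others, and beta-like cells were 50.9% of its cells, against 64.9% to 65.97%. It also held 1353 unnamed cells with a median of 1872 UMIs and a median mitochondrial share of 9.45%. The part of these differences in the results for that library was not tested.

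Every member had at least 1 UMI in each of 7 cell classes and in each library. At 3.9 mM the members together gave 0.698% of the UMIs of beta-like cells under vehicle (0.6962 to 0.7003) and 0.652% under imeglimin (0.6497 to 0.654). At 11.1 mM they gave 0.354% under vehicle (0.352 to 0.355) and 0.425% under imeglimin (0.424 to 0.427). Both libraries at 11.1 mM were below both libraries at 3.9 mM. Hormone transcripts took 17.5%, 25.8%, 43.7% and 38.3% of beta-like UMIs in the same order. With hormone and mitochondrially encoded genes taken out, which is called the reduced total from here on, the members gave 0.871%, 0.903%, 0.659% and 0.717%, so the glucose order was kept and the order of the libraries at 3.9 mM was the opposite.

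Ratios to other gene groups of the same cells need no scaling of libraries. In beta-like cells there were 29.9 member UMIs per 100 UMIs of nuclear-encoded oxidative phosphorylation subunits with vehicle and 31.8 with imeglimin at 3.9 mM, and 25.3 and 24.3 at 11.1 mM. Per 100 UMIs of cytosolic ribosomal proteins there were 6.59 and 6.76 at 3.9 mM, and 6.03 and 5.50 at 11.1 mM. In both ratios the library with imeglimin was above vehicle at 3.9 mM and below it at 11.1 mM.

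The other classes spanned a narrower range. In the order vehicle 3.9, imeglimin 3.9, vehicle 11.1 and imeglimin 11.1 mM, alpha-like cells, which make glucagon, gave 0.447%, 0.517%, 0.426% and 0.433%. Delta-like cells, which make somatostatin, gave 0.618%, 0.640%, 0.428% and 0.479%, again with both libraries at 11.1 mM lower. Pp-like cells, which make pancreatic polypeptide, gave 0.389%, 0.478%, 0.364% and 0.399%. Among cells that make no islet hormone, stromal-like cells gave 0.757%, 0.738%, 0.606% and 0.611%, endothelial-like cells 0.623%, 0.611%, 0.501% and 0.509%, and macrophage-like cells 0.631%, 0.561%, 0.491% and 0.440%.

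With vehicle, the share at 11.1 mM divided by that at 3.9 mM was 0.507 in beta-like cells (0.504 to 0.509) and 0.692 in delta-like cells (0.681 to 0.702). It was 0.953 in alpha-like cells (0.936 to 0.970) and 0.934 in pp-like cells. Of the reduced total these 4 ratios were 0.756, 0.854, 1.003 and 0.997, so beta-like cells were still the lowest and alpha- and pp-like cells lay at about equal shares. In endothelial-, macrophage- and stromal-like cells the ratios were 0.804, 0.779 and 0.802, and 0.865, 0.844 and 0.889 of the reduced total. Hormone transcripts, which these 3 classes do not make, were 5.14%, 6.27% and 6.43% of their UMIs with vehicle at 3.9 mM and 11.7%, 13.5% and 15.6% at 11.1 mM. The source of these hormone transcripts, and its part in the members' shares, was not tested.

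**Figure D1:**
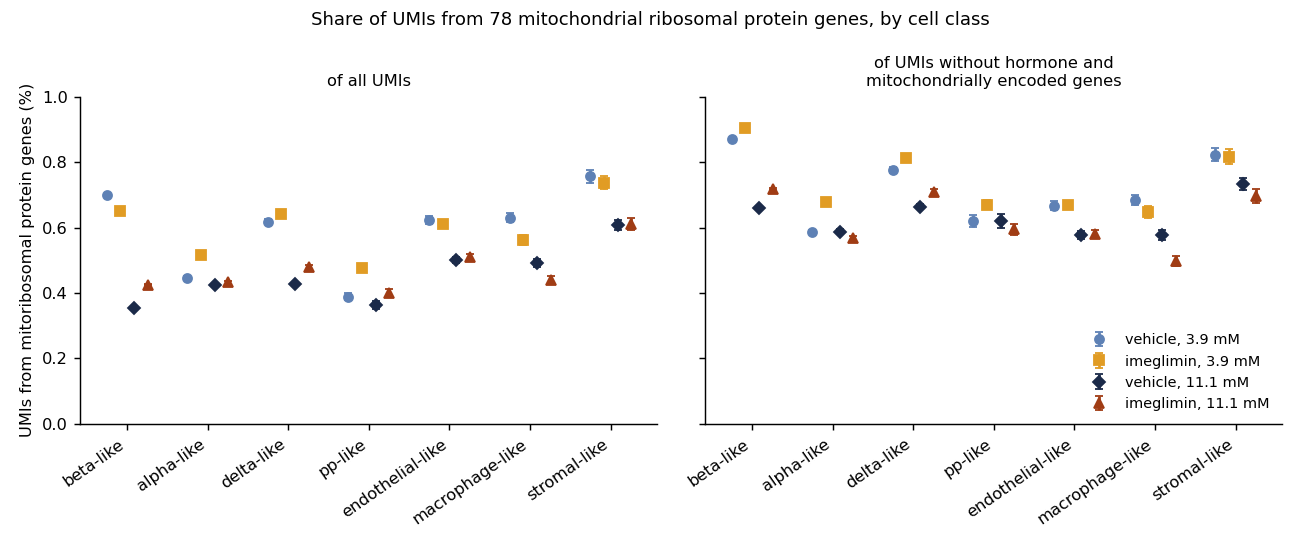
Share of UMIs from the 78 members (vertical axes, percent) in 7 cell classes and 4 libraries, out of all UMIs and out of UMIs without hormone and mitochondrially encoded genes. Points are single libraries and bars are 95% counting intervals. Of all UMIs, under vehicle beta-like cells run from 0.698% (3.9 mM) to 0.354% (11.1 mM), while over the 4 libraries alpha-like cells lie between 0.426% and 0.517%.

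The same order was seen cell by cell. After each beta-like cell was thinned to 3000 UMIs, the median cell at 3.9 mM held 21 member UMIs under vehicle (quartiles 17 and 24) and 20 under imeglimin (14 and 25). The median cell at 11.1 mM held 10 under vehicle (8 and 13) and 12 under imeglimin (10 and 15). Before thinning the medians were 86, 68, 45 and 55, and 31, 100, 42 and 73 cells were too shallow to be thinned. The library with imeglimin at 3.9 mM had the widest quartiles of the 4.

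Within that library, the members took 0.746% of the UMIs of c2, a cluster led by Snhg1, Snhg15 and Ddit3, with 19.045% hormone transcripts. They took 0.4204% in c5, led by Derl3 and Nfkbia, with 43.6% hormone transcripts. Of the reduced total the shares were 0.946% and 0.771%, so c2 was the higher of the pair in both totals.

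**Figure D2:**
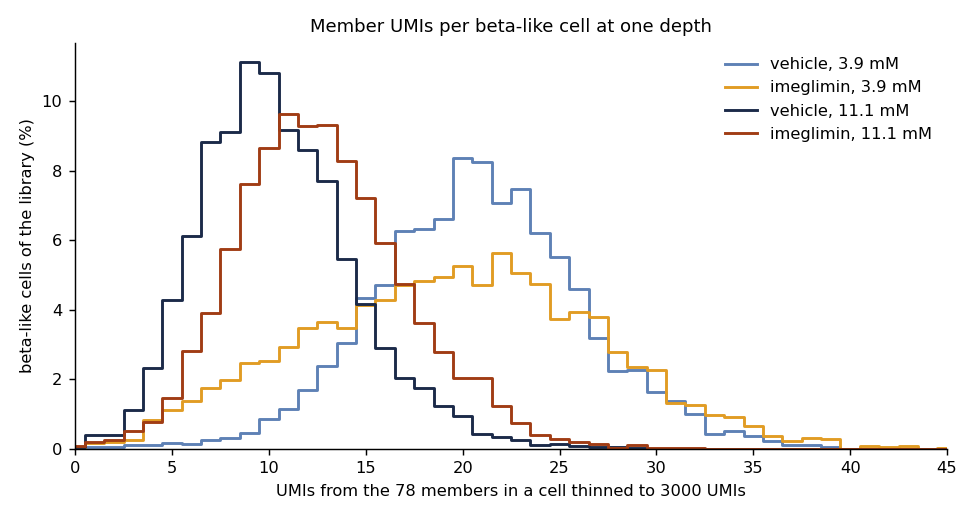
Member UMIs per beta-like cell after thinning to 3000 UMIs (horizontal axis, UMIs; vertical axis, percent of the library's beta-like cells), 1 line per library. The libraries at 11.1 mM have medians of 10 and 12 and those at 3.9 mM of 21 and 20, and the line for imeglimin at 3.9 mM is the broadest.

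Levels of single members in beta-like cells are given as CPM, counts brought to a common library total, after TMM scaling, which sets the libraries level on the genes that differ least. The 3′ method tags each transcript near its end, so CPM was not divided by gene length. The median member was at 56.6 CPM with vehicle and 68.3 with imeglimin at 3.9 mM, and at 38.3 and 46.1 at 11.1 mM. With vehicle at 3.9 mM the members ran from 5.86 to 226 CPM. The 6 highest members of each library held 19.9% to 22.0% of the set's total, so no small group dominated it.

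Mrps24 (uS3m, a small subunit protein at the messenger RNA entry) had the highest mean level, with 226, 271, 111 and 174 CPM for vehicle 3.9, imeglimin 3.9, vehicle 11.1 and imeglimin 11.1 mM. In the same order Mrpl20 (bL20m, a large subunit protein) had 203, 201, 139 and 185 CPM, and Mrps14 (uS14m, in the small subunit) had 202, 155, 165 and 201. Mrps33 (mS33) had 220, 177, 165 and 155. Mrps24 and Mrpl20 were lowest with vehicle at 11.1 mM, Mrps14 was lowest with imeglimin at 3.9 mM, and Mrps33 was lowest with imeglimin at 11.1 mM. Mrpl53 (mL53) had 185, 234, 122 and 165 CPM, and Mrps16 (bS16m) 202, 212, 106.4 and 138. The lowest members were Mrps27 (mS27) with 5.86, 8.90, 4.05 and 5.45 CPM, Mrpl37 (mL37) with 7.69, 9.41, 7.35 and 8.48, Mrpl47 (uL29m) with 8.86, 13.969, 9.16 and 9.25, and Mrps2 (uS2m) with 12.3, 14.5, 10.2 and 12.9.

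The genes Mrps18a, Mrps18b and Mrps18c are homologues of 1 bacterial protein that take different places in the particle. Mrps18c (bS18m) had 104, 142, 60.2 and 83.3 CPM, Mrps18a (mL66) had 87.5, 113, 51.4 and 58.4, and Mrps18b (mS40) had 58.7, 52.6, 37.1 and 46.7. All 3 were lower in both libraries at 11.1 mM than in both at 3.9 mM. Mrpl12 (bL12m), a stalk protein also known to bind mitochondrial RNA polymerase, had 55.9, 68.0, 27.9 and 37.9 CPM. Mrpl58 (mL62), a peptidyl-tRNA hydrolase built into the large subunit, had 80.2, 98.2, 47.2 and 54.6, and Mrps36 had 34.4, 49.004, 28.8 and 33.9. These 3 showed the same order, with vehicle at 11.1 mM lowest and imeglimin at 3.9 mM highest.

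**Figure D3:**
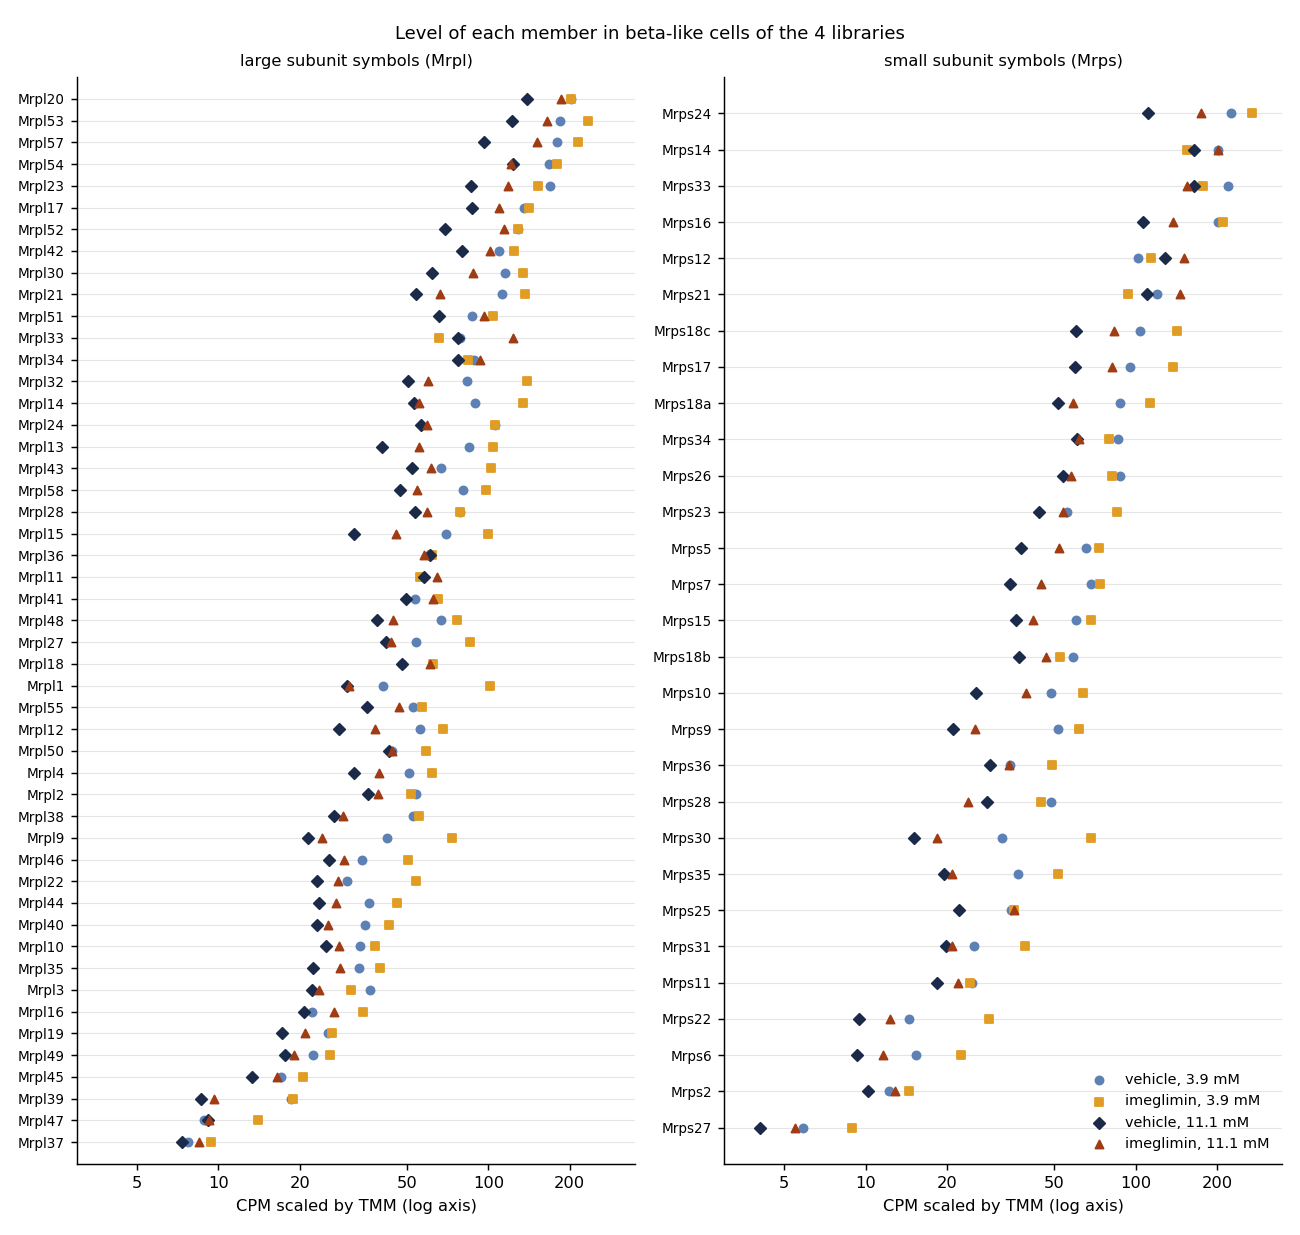
CPM scaled by TMM of each of the 78 members in beta-like cells (horizontal log axis), by subunit symbol and ordered by mean level; each point is 1 library. Mrps24 runs from 111 to 271 CPM with both libraries at 3.9 mM on the right, while Mrps12 (102, 114, 129 and 152 CPM) has them on the left.

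In beta-like cells with vehicle, 73 of the 78 members were lower at 11.1 than at 3.9 mM glucose, with a median log2 ratio of -0.60. The 70 members that reached 20 CPM in either library were compared further. Below 0 were 66 of these 70, and 3650 of all 5905 genes compared. At least 1.5-fold lower were 38 of the 70 members and at least 1.5-fold higher 0, where 20% of all genes compared were lower and 9.87% higher. The median was -0.61 for the members compared and -0.15 for all genes. By plain CPM, which shifts every ratio by 0.40 on the log2 scale, the medians were -1.001 and -0.563, with 63 members lower and 231 genes higher against 3056 lower. Of the reduced total they were -0.43 and 0.05, with 23 members lower and 1197 genes higher against 867 lower. In the 11 alternatives the members' median lay 0.44 to 0.59 below that of all genes. Plain CPM and the reduced total shift every ratio alike, so they can alter this difference only through which genes are compared. The fold limit does not enter a median. The range is therefore no separate check for these alternatives.

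Mrps9 (uS9m), a small subunit protein that reaches toward the peptidyl site, had the lowest ratio. Its level was 51.4 CPM with vehicle at 3.9 mM and 21.1 at 11.1 mM, a log2 ratio of -1.28 (-1.37 to -1.20), and with imeglimin 61.8 and 25.5, also -1.28. Mrpl15 (uL15m) had 69.7 and 31.8 CPM with vehicle (log2 ratio -1.13) and 99.7 and 45.6 with imeglimin (-1.13). Both genes were thus more than 2-fold lower at 11.1 mM under either treatment. Mrps30 had 31.9 and 15.1 CPM with vehicle (-1.08), Mrpl13 (uL13m) 85.1 and 40.4 (-1.07), and Mrpl21 (bL21m) 113 and 53.8 (-1.06).

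Some members differed little. Chosen after their values were seen, the 5 members above 0 by TMM were Mrps12, Mrpl47, Mrpl36, Mrpl11 and Mrpl18, and by plain CPM all 78 members were below 0. Mrps12 (uS12m), a protein of the decoding centre, had 102 CPM at 3.9 mM and 129 at 11.1 mM, a log2 ratio of 0.34 by TMM and -0.06 by plain CPM. Among members whose direction was the same in 3 scalings, the smallest differences were those of Mrpl34 (bL34m, log2 ratio -0.19), Mrps36 (-0.26), Mrps14 (-0.30), Mrpl49 (mL49, -0.34) and Mrps23 (mS23, -0.34).

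With imeglimin, 72 of 78 members were lower at 11.1 than at 3.9 mM, with a median of -0.58. Below 0 were 67 of the 73 members compared and 3527 of the 6047 genes compared. Of 73 compared, 36 were at least 1.5-fold lower and 2 higher, where 23.6% of 6047 genes were lower and 15.2% higher. The median was -0.57 for the members compared and -0.14 for all genes. Scaled to the reduced total, 1532 genes were higher and 1143 lower, in place of 918 and 1426, and the members' median was -0.44. Across the 2 glucose comparisons, which share no library, 69 of 78 members were lower in both and 30 were at least 1.5-fold lower in both. Of the 70 members compared in both, 62 (88.6%) were below 0 in both and 27 (38.6%) at least 1.5-fold lower in both, where 48.1% and 12% of the 5595 genes compared in both were.

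Mrps30 had 68.3 CPM with imeglimin at 3.9 mM and 18.3 at 11.1 mM (log2 ratio -1.90, -1.99 to -1.81). Mrpl1 (uL1m, of the L1 stalk) had 102 and 30.3 CPM (-1.75), Mrpl9 (bL9m) 73.2 and 24.2 (-1.59), Mrps35 (mS35) 51.8 and 20.8 (-1.31), and Mrpl14 (uL14m) 135 and 55.4 (-1.28). In all 5 the library with imeglimin at 3.9 mM was the highest of the 4. Higher at 11.1 mM were Mrpl33 (bL33m) with 65.4 and 123 CPM (0.91, 0.86 to 0.97) and Mrps21 (bS21m) with 94.1 and 146 (0.63). Mrps12 had 114 and 152 CPM (0.41), Mrps14 155 and 201 (0.38), and Mrpl11 (uL11m) 55.9 and 64.7 (0.21).

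**Figure D4:**
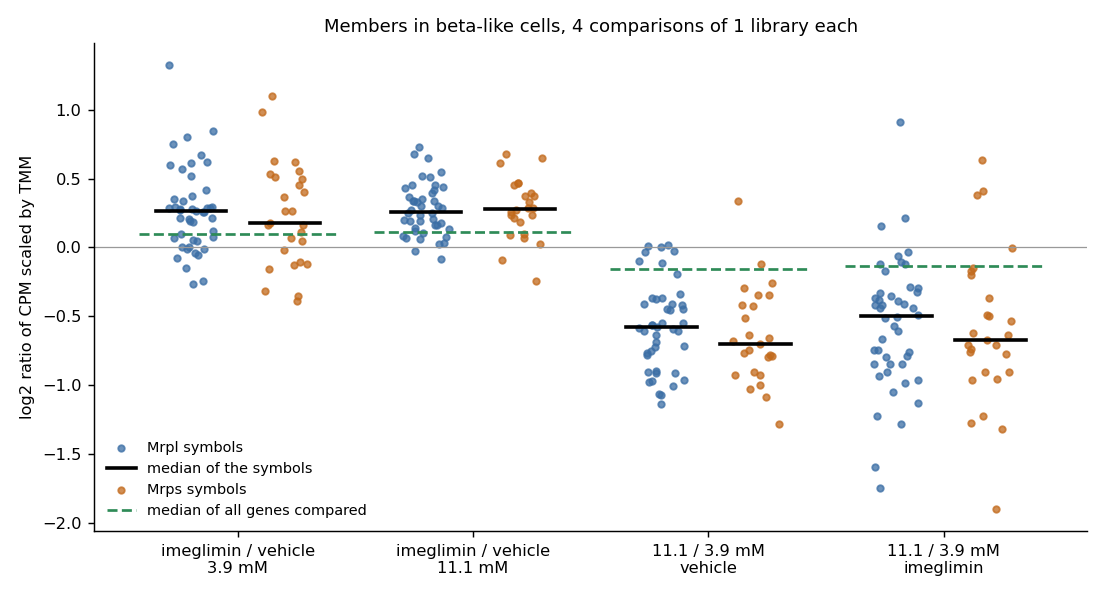
Log2 ratios of CPM scaled by TMM (vertical axis) of the members compared in beta-like cells, in 4 comparisons of 1 library with another, by subunit symbol. Solid bars are medians of the symbols and dashed lines medians of all genes compared; member medians are 0.26 and 0.27 in the imeglimin comparisons (all genes 0.10 and 0.11) and -0.61 and -0.57 in the glucose comparisons (all genes -0.15 and -0.14).

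Imeglimin against vehicle at 3.9 mM gave a result whose sign depends on the scaling. By TMM 62 of 78 members were higher with imeglimin (median 0.26), and by plain CPM 27 were higher and 51 lower (median -0.04). Above 0 by TMM were 57 of the 73 members compared and 3515 of the 6003 genes compared. Of 73 members compared, 12 were at least 1.5-fold higher and 0 lower by TMM, where 12.3% of 6003 genes were higher and 10.5% lower, so the members' count higher lay near the background. By plain CPM 3 members were higher and 3 lower, with 218 genes higher and 1507 lower. Scaled to the reduced total 6 members were higher, with 441 genes higher and 1199 lower. The members' median was above that of all genes by 0.16 by TMM and by 0.13 to 0.25 in the 11 alternatives. Here too plain CPM and the reduced total can alter the difference only through which genes are compared.

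A few members had large ratios. Mrpl1 had 40.6 CPM with vehicle and 102 with imeglimin at 3.9 mM, and 29.9 and 30.3 at 11.1 mM. Its log2 ratio at 3.9 mM was 1.32 (1.26 to 1.39) by TMM and 1.02 by plain CPM, and at 11.1 mM it was 0.02 (-0.07 to 0.11). The library with imeglimin at 3.9 mM was thus more than 2-fold above each of the other 3. Mrps30 had 31.9 and 68.3 CPM at 3.9 mM (1.10, 1.02 to 1.17) and 15.1 and 18.3 at 11.1 mM (0.28, 0.16 to 0.40). Mrps22 (mS22), specific to mitochondria, had 14.5 and 28.6 CPM at 3.9 mM (0.98) and 9.44 and 12.3 at 11.1 mM (0.38). Mrpl22 (uL22m), which lines the peptide exit tunnel, had 29.9 and 53.9 CPM (0.85) and then 23.3 and 27.7 (0.25). Mrpl9 had 42.0 and 73.2 CPM (0.80) and then 21.4 and 24.2 (0.18). In each of these 5 genes imeglimin at 3.9 mM was highest and vehicle at 3.9 mM next. In the 100 bases before their starts, Mrpl9 holds the NRF1 letters, Mrpl22 and Mrps22 the ETS letters, and Mrpl1 and Mrps30 neither. Over the members compared, the median log2 ratio was 0.27 with the NRF1 letters in the window (12 genes) and 0.23 without (52 genes). For the ETS letters it was 0.26 both with (24 genes) and without (40 genes).

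Lower with imeglimin at 3.9 mM in 3 scalings were 5 members at the other end. Mrps14 had 202 CPM with vehicle and 155 with imeglimin (log2 ratio -0.39, -0.42 to -0.35), and Mrps21 had 120 and 94.1 (-0.35, -0.40 to -0.30). Mrps33 had 220 and 177 CPM (-0.31), Mrpl33 78.7 and 65.4 (-0.27), and Mrpl3 (uL3m, near the peptidyl transferase centre) 36.4 and 30.8 (-0.24). None of them reached 1.5-fold by TMM.

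At 11.1 mM, 74 of 78 members were higher with imeglimin by TMM and 70 by plain CPM, with medians of 0.28 and 0.24. Above 0 by TMM were 64 of the 68 members compared and 3727 of the 5642 genes compared. Of 68 compared, 6 were at least 1.5-fold higher and 0 lower, where 5.57% of 5642 genes were higher and 4.38% lower. The median was 0.27 for the members compared and 0.11 for all genes. Scaled to the reduced total, 0 members passed 1.5-fold and the medians were 0.09 and -0.10, with 150 genes higher and 647 lower in place of 314 and 247. With the mean of per-cell CPM, centred on the median of all genes, 2 members passed, with 171 genes higher and 351 lower. The members' median was above that of all genes by 0.16 to 0.25 in the 11 alternatives, with the same limit on what plain CPM and the reduced total can alter.

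Mrpl52 (mL52) had 68.8 CPM with vehicle and 114 with imeglimin at 11.1 mM, a log2 ratio of 0.73 (0.68 to 0.78), and 129 CPM in each library at 3.9 mM. Mrpl33 had 76.9 and 123 CPM at 11.1 mM (0.68), Mrps25 (mS25) 22.1 and 35.4 (0.68), Mrps24 111 and 174 (0.65) and Mrpl57 (mL63) 96.1 and 151 (0.65). For Mrpl52, Mrps24 and Mrpl57 imeglimin at 11.1 mM lay between vehicle at 11.1 mM and both libraries at 3.9 mM, and for Mrpl33 it was the highest of the 4. At the low end Mrps28 (bS1m) had 28.3 and 23.9 CPM (-0.24), Mrps33 165 and 155 (-0.09), Mrpl36 (bL36m) 60.9 and 57.6 (-0.08), Mrpl54 (mL54) 123 and 121 (-0.02) and Mrpl14 52.9 and 55.4 (0.07).

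The 2 imeglimin comparisons share no library. By TMM 60 of 78 members were higher with imeglimin at both glucose levels, 14 were higher at 11.1 mM and lower at 3.9 mM, and 2 (Mrps28 and Mrps33) were lower at both. Of the 68 members compared in both, 50 (73.5%) were higher in both, where 45.2% of 5288 genes were. Higher at 11.1 mM and lower at 3.9 mM were 20.6% of these members and 22.4% of these genes. By plain CPM 24 of 78 members were higher at both levels, 46 were higher at 11.1 mM and lower at 3.9 mM, and 5 were lower at both, so the larger of these groups depends on the scaling. Of the 64 members compared in both by plain CPM, these groups were 28.1%, 60.9% and 7.81%. Among the 5148 genes compared in both they were 20.5%, 39.9% and 33.4%, so the scaling moves all genes too. Across the 78 members Pearson's r between the 2 sets of log2 ratios was -0.02, a description over genes that share libraries and are not independent. Mrpl1 had ratios of 1.32 at 3.9 mM and 0.02 at 11.1 mM, and Mrpl52 had -0.01 and 0.73. The median width of the counting intervals was 0.13 at 3.9 mM and 0.15 at 11.1 mM on the log2 scale.

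**Figure D5:**
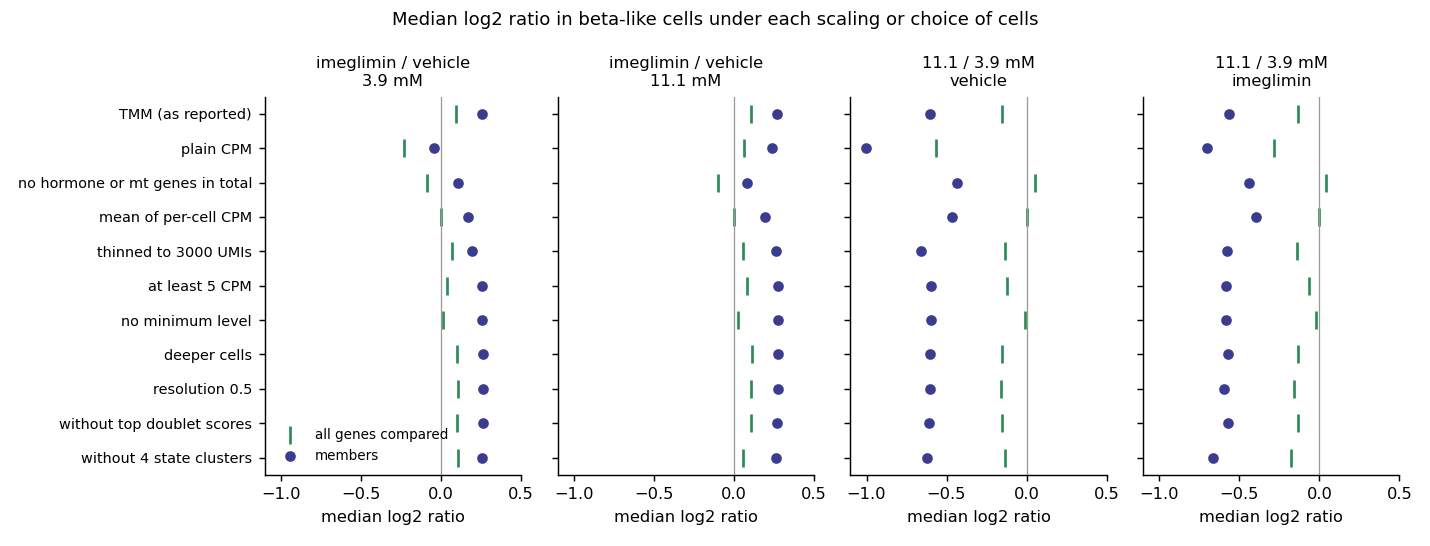
Median log2 ratio (horizontal axes) of members (points) and of all genes compared (ticks) in beta-like cells under each scaling or choice of cells, in 4 comparisons. Members lie above all genes in the imeglimin comparisons and below them in the glucose comparisons in each line drawn, while both shift against 0, as with plain CPM at 3.9 mM (members -0.04, all genes -0.23). Plain CPM and the reduced total can alter the distance between them only through which genes are compared.

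A lower limit of size, 0.32 on the log2 scale, was also applied in beta-like cells. With imeglimin at 3.9 mM 25 members were above it and 2 below, where 29.1% and 19.9% of all genes were. At 11.1 mM 28 were above and 0 below (21.0% and 10.8% of all genes). For glucose with vehicle 1 was above and 58 below (18.8% and 36.8%), and with imeglimin 4 were above and 55 below (25% and 38.7%). The members' share below the limit for glucose, 58 of 70 and 55 of 73, was thus above that of all genes in both comparisons.

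The balance of the subunits varied within a narrow range. In beta-like cells at 3.9 mM there were 1.58 large subunit UMIs per small subunit UMI under vehicle (1.57 to 1.59) and 1.698 under imeglimin (1.69 to 1.71). At 11.1 mM there were 1.56 under vehicle (1.55 to 1.57) and 1.59 under imeglimin (1.577 to 1.599). The library with imeglimin at 3.9 mM stood above the other 3. By place in the particle the values were 1.75, 1.96, 1.71 and 1.74, with the same library highest. From the median level of the members of each symbol the order was another, with 0.953, 0.995, 1.16 and 1.05, so that vehicle at 11.1 mM was highest and both libraries at 3.9 mM were below 1. At 3.9 mM the UMI ratio in c2 cells was 1.68 under imeglimin and 1.64 under vehicle, and in c5 cells under imeglimin it was 1.78. Alpha-like cells had 1.71, 1.70, 1.68 and 1.69, and endothelial-like cells 1.89, 1.79, 1.84 and 1.86.

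Median log2 ratios were close between the subunits. With imeglimin at 3.9 mM they were 0.26 for the 46 large and 0.18 for the 27 small subunit symbols compared, and at 11.1 mM 0.26 (44) and 0.28 (24). For glucose they were -0.57 (45) and -0.70 (25) with vehicle, and -0.50 (46) and -0.67 (27) with imeglimin. Members counted by name as having a bacterial counterpart had medians of 0.18, 0.30, -0.68 and -0.61 in these 4 comparisons. Those counted as specific to mitochondria had 0.29, 0.20, -0.59 and -0.53. Members with the NRF1 letters in their window had a median of -0.75 for glucose with vehicle (11 genes) and those without -0.55 (50 genes). For the ETS letters the medians were -0.60 (23 genes) and -0.59 (38 genes).

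In alpha-like cells the values for glucose differed between the treatments, which cannot be told apart from a difference between single libraries. With vehicle, 39 of 78 members were higher and 39 lower at 11.1 mM, and 0 of 34 compared passed 1.5-fold, where 1.35% of 2966 genes were higher and 0.405% lower. With imeglimin, 73 of 78 were lower at 11.1 mM, with a median of -0.46 over those compared beside -0.57 in beta-like cells. Below 0 were 46 of the 49 members compared and 2072 of the 3245 genes compared. The median of all genes compared in alpha-like cells was -0.13, and by plain CPM the median of the 78 members was -0.29, beside -0.72 in beta-like cells. Of 49 members compared, 9 were at least 1.5-fold lower and 0 higher, where 9.8% of 3245 genes were lower and 3.27% higher.

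Imeglimin at 3.9 mM in alpha-like cells went with a median of 0.55 over 49 members compared, and 0.18 over all genes. 22 members were at least 1.5-fold higher and 0 lower, where 20.6% of 3352 genes were higher and 7.91% lower. By plain CPM 5 members were higher, the medians were 0.28 and -0.14, and 271 genes were higher and 615 lower. Cluster c7 held 600 of these cells with vehicle and 13 with imeglimin, and c13 held 60 and 1359, so the comparison is largely one between 2 clusters. At a clustering resolution of 0.5 the median was 0.25 and 1 member was higher. Mrpl30 (uL30m) had 56.3 and 129 CPM (log2 ratio 1.19), Mrpl15 35.3 and 71.6 (1.02) and Mrpl12 29.8 and 60.0 (1.01). Mrpl15 and Mrpl12, like others of the 49, reached 50 CPM only with imeglimin. The minimum level thus admitted them through the library where they were higher, which bears on the count of members higher. Over all 78 members, with no minimum, the TMM median was 0.51. Mrpl36 had 95.3 and 87.8 CPM (-0.12), Mrps21 122 and 113 (-0.12) and Mrps33 187 and 175 (-0.09).

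At 11.1 mM in alpha-like cells the median was 0.13 over 34 members compared and 0.06 over all genes, and 0 members passed 1.5-fold, where 5.73% of 3107 genes were higher and 4.73% lower. Mrpl30 had 58.5 and 86.0 CPM (log2 ratio 0.55), Mrps18c 59.6 and 79.8 (0.42) and Mrps24 115 and 148 (0.37). Mrps33 had 200 and 160 CPM (-0.32), Mrpl54 100 and 83.8 (-0.26) and Mrpl36 94.4 and 79.7 (-0.24). Mrpl30 thus had the highest ratio in both imeglimin comparisons among the members that reached 50 CPM in this class. Over all 78 members, Mrps30 (1.28) at 3.9 mM and Mrps25 (0.57) at 11.1 mM were higher.

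Delta-like cells lay nearer than alpha-like cells to beta-like cells for glucose with vehicle. With imeglimin the order of the classes depended on the scaling. By TMM, set within each class, the medians over the members compared were -0.31 in delta-, -0.46 in alpha- and -0.57 in beta-like cells. By plain CPM the medians of the 78 members were -0.52 in delta-, -0.29 in alpha- and -0.72 in beta-like cells. With vehicle 65 of 78 members were lower at 11.1 mM, with a median of -0.33, and 6 of 47 compared were at least 1.5-fold lower and 0 higher, where 6.29% of 3166 genes were lower and 5.59% higher. Below 0 were 39 of these 47 members and 1709 of the 3166 genes. With imeglimin 67 of 78 were lower, and 8 of 52 compared were at least 1.5-fold lower and 1 higher, where 9.34% of 3235 genes were lower and 8.5% higher. Below 0 were 44 of these 52 members and 1733 of the 3235 genes.

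Imeglimin in delta-like cells went with a median of 0.20 over 52 members compared at 3.9 mM and of 0.24 over 41 at 11.1 mM, with 0.09 over all genes in each. At 3.9 mM 1 member was at least 1.5-fold higher and 0 lower, where 5.34% of 3222 genes were higher and 4.81% lower. At 11.1 mM 2 were higher and 0 lower, where 3.77% of 3102 genes were higher and 3.16% lower. Among the members that reached 50 CPM, Mrpl1 was the highest at 3.9 mM, with 37.1 and 61.7 CPM (log2 ratio 0.73), followed by Mrps17 (uS17m) with 91.4 and 136 (0.57) and Mrpl32 (bL32m) with 77.6 and 108 (0.48). The lowest of them were Mrps33 with 228 and 190 (-0.27), Mrps21 with 132 and 113 (-0.22) and Mrpl11 with 70.7 and 60.6 (-0.22). Below that level, Mrps27 (1.08) was the highest and Mrps28 (-0.28) the lowest of all 78 members. At 11.1 mM Mrpl57 had 110 and 170 CPM (0.63), Mrps24 128 and 197 (0.63) and Mrpl33 85.9 and 126 (0.55). Mrpl36 had 116 and 84.9 (-0.46), Mrps33 207 and 179 (-0.21) and Mrpl50 (mL50) 50.3 and 46.6 (-0.11). Mrps33 was lower with imeglimin in beta-, alpha- and delta-like cells at both glucose levels, by TMM and by plain CPM, although its TMM interval in alpha-like cells at 3.9 mM takes in 0.

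Other genes of the pathway were taken from fixed lists. The counts for glucose with vehicle below stand beside 20% of all genes compared being at least 1.5-fold lower and 9.87% higher. 5 further subunits carry other names, and the 4 compared in beta-like cells were all lower at 11.1 mM with vehicle, 2 of them at least 1.5-fold. Aurkaip1 had 129 and 64.7 CPM (log2 ratio -0.996), Chchd1 227 and 114 (-0.99), Gadd45gip1 108 and 75.4 (-0.52) and Dap3, a GTP-binding small subunit protein, 62.3 and 50.2 (-0.31). With imeglimin at 3.9 mM Dap3 had 94.2 CPM (0.60 against vehicle).

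Of 27 assembly and RNA modification factors found, 7 were compared for glucose with vehicle, and 4 were at least 1.5-fold lower and 0 higher. Mpv17l2, an assembly factor of the inner membrane, had 27.4 and 9.38 CPM (log2 ratio -1.55), the GTPase Noa1 22.7 and 10.2 (-1.16), and Malsu1, an assembly factor of the large subunit, 67.2 and 31.6 (-1.09). Malsu1 was at 128 CPM with imeglimin at 3.9 mM (0.93 against vehicle) and 36.5 with imeglimin at 11.1 mM, the order also seen for Mrpl1 and Mrps30. Of 13 translation factors found, 5 were compared, with 1 at least 1.5-fold lower and 0 higher: Oxa1l, the inner membrane insertase, with 35.9 and 18.0 CPM (-0.99). In this comparison Mpv17l2, Noa1 and Oxa1l reached 20 CPM only at 3.9 mM. The minimum level thus admitted these genes through the library where they were higher, and factors below it in both libraries were not counted.

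Of 13 genes that copy and transcribe mitochondrial DNA or handle its RNA, 4 were compared for glucose with vehicle and 0 passed 1.5-fold. Lrpprc, which stabilises mitochondrial messenger RNAs, had 34.8 and 18.1 CPM with vehicle and imeglimin at 3.9 mM (log2 ratio -0.94) and 31.4 and 31.8 at 11.1 mM (0.02). Its partner Slirp had 49.4 and 36.4 CPM at 3.9 mM (-0.44) and 42.6 and 65.3 at 11.1 mM (0.61). Both were thus lowest with imeglimin at 3.9 mM. Of 11 regulators, 3 were compared for glucose with vehicle, with 1 at least 1.5-fold lower and 0 higher. Nrf1 had 40.1 and 25.7 CPM at 3.9 mM and 15.95 and 21.3 at 11.1 mM. Gabpb1, a subunit of GABP, had 12.1 and 33.4 CPM at 3.9 mM (1.47) and 9.29 and 9.28 at 11.1 mM, and Gabpa, the subunit that binds the ETS letters, had 16.7 and 28.3 (0.76) and then 14.2 and 14.4. Both subunits reached 20 CPM only with imeglimin at 3.9 mM.

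By TMM, the 13 mitochondrially encoded messenger RNAs, which this ribosome translates, had the opposite sign for glucose. 11 were compared with vehicle, 7 were at least 1.5-fold higher at 11.1 mM and 0 lower, and their median was 0.92. mt-Nd4, a complex I subunit, had 985 and 2109 CPM (log2 ratio 1.10), and mt-Cytb, of complex III, 1251 and 2638 (1.08). The size depends on the scaling, as TMM lies 0.40 above plain CPM here and the lowest of the 11 ratios was 0.12. Mitochondrially encoded genes together gave 2.40% of beta-like UMIs with vehicle at 3.9 mM and 2.58% at 11.1 mM. Nuclear-encoded oxidative phosphorylation subunits had a median of -0.35, with 21 of 79 at least 1.5-fold lower and 1 higher, near the share of all genes for lower, and cytosolic ribosomal proteins had -0.48, with 26 of 80 lower and 0 higher. With imeglimin at 11.1 mM the medians were 0.36 for oxidative phosphorylation subunits, 0.40 for cytosolic ribosomal proteins and -0.02 for mitochondrially encoded messenger RNAs, beside 0.27 for the members. At 3.9 mM they were 0.10, 0.15 and 0.01 beside 0.26, on a TMM scale that lies 0.30 above plain CPM.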

How the data were processed

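All 4 deposited matrices hold raw UMI counts per gene and cell barcode, as whole numbers; per the submitters' processing notes Cell Ranger 6.0.2 and the mm10 genome were used. The members, gene lists and tests were chosen with earlier results of these data known.

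Cells kept had 1000 UMIs and 500 genes or more, and a mitochondrial share of 20% or less. Scrublet called 0 doublets, so the caller did not work and doublets were kept; an alternative leaves out the highest scores. Cells were clustered in scanpy 1.11.5 (2000 variable genes, 30 components, 15 neighbours, Leiden resolution 1) and classes named from fixed markers, with mixed clusters left unnamed. UMIs were summed per class and library and scaled by TMM (edgeR 4.0.16, R 4.3.3; Python 3.11.15). Genes with at least 20 CPM (beta-like) or 50 CPM (alpha- and delta-like) in either library were compared, and 1.5-fold is a measure of size. A gene near this minimum may be compared only through the library where it is higher, among members and all genes alike. Intervals are exact Poisson, Clopper-Pearson (shares) or conditional binomial (ratios) at 95%, and the ratio code was tested on simulated data. With 1 library per condition no test between conditions was made.

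Named members are the 6 highest and 4 lowest by mean level, the 5 highest and 5 lowest ratios of each beta-like comparison with 1 direction under TMM, plain CPM and mean per-cell CPM (centred on the median of all genes), the 3 highest and 3 lowest of each imeglimin comparison in alpha- and delta-like cells, members of opposite sign in the imeglimin comparisons, and Mrps18a, Mrps18b, Mrps18c, Mrps30, Mrps36, Mrpl12 and Mrpl58; list genes were named from those with the largest ratios. Alternatives changed the scaling, minimum level, cell limits, depth, clustering, doublets, fold and subunit assignment. Protein sequences were not used here.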

Additional observations from a re-analysis of the deposited data

Results flagged for a closer look

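In beta-like cells Mrps21 (bS21m), a small subunit protein, was lower under imeglimin at 3.9 mM glucose and higher under imeglimin at 11.1 mM, which is why it is listed here. Its log2 ratios were -0.353 and 0.398 by TMM, from 120 and 94.1 CPM at 3.9 mM and 111 and 146 CPM at 11.1 mM. Each ratio was at least 0.32 in size with a counting interval that leaves out 0, and by TMM no other of the 78 members passed these limits. The list depends on the scaling. By plain CPM the ratios of Mrps21 were -0.65 and 0.36, and Mrpl33 (-0.57 and 0.64) and Mrpl23 (-0.45 and 0.41) passed the limit of size too. By the mean of per-cell CPM Mrps21 had -0.47 and 0.29 and did not pass, while Mrpl33 (-0.33 and 0.58) did. In delta-like cells the ratios were -0.22 and 0.43. With 1 library per condition the difference between the 2 glucose levels was not tested.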

How the results depend on the processing

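No paired analysis was possible because each condition has 1 library. Depth limits single members least in beta-like cells and more in the smaller classes, and conditions cannot be told apart from libraries.

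In beta-like cells, plain CPM gave medians of -0.0438 for imeglimin at 3.9 mM (3 members higher, 3 lower), -1.001 for glucose with vehicle (63 lower) and -0.71 for glucose with imeglimin (1 higher). CPM without hormone and mitochondrially encoded genes gave 0.11 (6 higher) for imeglimin at 3.9 mM, 0.0865 (0 higher) at 11.1 mM, -0.43 (23 lower) for glucose with vehicle and -0.44 with imeglimin. The mean of per-cell CPM gave 0.17 (7 higher), 2 higher at 11.1 mM, -0.47 and -0.39. A limit of 0.32 on the log2 scale gave 25 higher and 2 lower, 28 higher, 1 higher and 58 lower, and 4 higher and 55 lower, in that order. Without the clusters led by heat shock, interferon, hypoxia or dividing-cell genes, an alternative chosen after seeing the data, the median for glucose with imeglimin was -0.66 and the member shares were 0.649% (imeglimin 3.9 mM) and 0.346% (vehicle 11.1 mM).

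In alpha-like cells imeglimin at 3.9 mM gave 0.28 and 5 higher by plain CPM, and 0.25 and 1 higher at resolution 0.5; at 11.1 mM 1 member was lower with a minimum of 20 CPM. In delta-like cells 3 were higher at 3.9 mM with that minimum, and 0 at 11.1 mM by plain CPM or at resolution 0.5.

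Without hormone and mitochondrially encoded genes the beta-like shares were 0.871%, 0.903%, 0.659% and 0.717%. Thinning gave 0.696% (vehicle 3.9 mM) and 0.349% (vehicle 11.1 mM), and resolution 0.5 gave 0.696% (vehicle 3.9 mM). The large to small ratio was 1.75, 1.96, 1.71 and 1.74 by place in the particle, and 0.953, 0.995, 1.16 and 1.05 from medians of members, where vehicle at 11.1 mM became the highest. The cause of these shifts was not tested. The other 144 values of these summary results stayed within their limits.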
